A study of Mus musculus with 10 samples.

Results

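The genes described here are the nuclear-encoded subunits of the mitochondrial respiratory chain, in retinas of naive mice aged 3 months. Of the 36115 genes in the deposited count table, 83 have a name that starts with Nduf followed by a, b, c, s or v and a digit, with Uqcr, with Cox and a digit from 4 to 8, or with Atp5, or that is Sdha, Sdhb, Sdhc, Sdhd or Cyc1. Another 6 genes with such a name end in -ps, the mark of a pseudogene, and were left out. The 83 members fall by name into 36 of complex I, 4 of complex II, 9 of complex III, 17 of complex IV and 17 of complex V. Enough reads for a test were found for 80 of them, and the other members, Uqcrc1, Cox6a2 and Cox7b2, were too low. Ndufs3 and Cox8c were not analysed here.

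Libraries of total RNA from retina were compared between 5 wild-type samples (W1 to W5) and 5 samples with the genotype label B6.129S2-Il6tm1Kopf/J (K1 to K5), a line in which the gene of the cytokine interleukin-6 is disrupted in all cells. Both groups carry a C57BL/6 background label, the same age and no treatment. The question put to the data is whether the subunits of complexes I to V differ between the groups. The labels do not say whether the wild types were littermates or whether each library is a separate animal, so p-values measure no more than the spread among these libraries, part of which may be technical, and the mutation and any difference in genetic background cannot be told apart.

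The respiratory chain moves electrons from NADH (at complex I) and succinate (at complex II) through ubiquinone, complex III and cytochrome c to oxygen at complex IV, and complexes I, III and IV pump protons across the inner mitochondrial membrane. Complex V, the ATP synthase, makes ATP from the resulting proton gradient. Most subunits are encoded in the nucleus and must be matched by a small set encoded in mitochondrial DNA, and in the retina the chain is densest in the inner segments of photoreceptors, which use much ATP for ion pumping.

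Total counts ran from 30433373 (W1) to 38857374 (W4), and the members made up 0.722% to 0.910% of the scaled total in each library. The tissue label fits the marker genes: the summed level of 13 rod markers was 62850 to 87770 CPM (reads relative to the scaled library total) in every library, against at most 1.85 CPM for 6 lens markers. The targeted gene went against the label: Il6 had 0 or 1 read in each wild-type library and 3 to 7 reads in each library labelled knockout. Gene-level counts do not show which part of the disrupted gene the reads come from, so directions are those of the libraries as labelled. By its label, K5 was given a second index of its own.

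The sequence of the only called member, Ndufs5, is shown beside that of a copy. Ndufs5 encodes an accessory subunit of complex I on the side of the intermembrane space, and the mouse genome holds a processed pseudogene, BC002163, that is a near-identical copy of it. The copy matches the Ndufs5 coding sequence over 100% of its 318 bases with 99.4% identity, and the only differences are the substitutions T81C and A105G, with the Ndufs5 base first and positions counted from the first base of the start codon. Bases 66 to 120 of the Ndufs5 coding sequence and the aligned stretch of the copy are shown with both differing bases in capitals, since a read inside the coding sequence that covers neither base matches both genes equally (GENCODE M21 models on GRCm38).
Ndufs5: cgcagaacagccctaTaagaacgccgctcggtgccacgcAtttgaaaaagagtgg
BC002163: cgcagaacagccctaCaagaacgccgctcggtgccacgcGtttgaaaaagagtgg

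Promoters of respiratory chain genes are known for sites of the nuclear respiratory factor NRF1, of ETS factors such as GABPA, and of YY1. RefSeq promoter windows on GRCm38.p6, from 250 bases before to 50 after the start, were found for 68 members (74 windows). The NRF1 motif (GCGCA, any base, then GCGC) was present on either strand in 18 of the 74 windows (24.3%) and in 4.60% of 32851 windows over all genes. CCGGAAG (ETS) was present in 15 windows (20.3%) against 8.86%, and AANATGGCG (YY1) in 12 windows (16.2%) against 2.38%. Windows with the motif in capitals are shown for the called member (Ndufs5), for the member with the lowest fold change (Cox6a1) and for the complex V member with the lowest p (Atp5e), all 3 genes being on the minus strand and the windows being chr4:123718250-123718309, chr5:115349086-115349145 and chr2:174464169-174464228. Such a match is a description of the sequence and does not show that a factor binds.
Ndufs5 (NRF1): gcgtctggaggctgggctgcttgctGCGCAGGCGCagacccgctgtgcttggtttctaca
Cox6a1 (NRF1): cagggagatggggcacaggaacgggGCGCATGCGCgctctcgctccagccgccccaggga
Atp5e (ETS): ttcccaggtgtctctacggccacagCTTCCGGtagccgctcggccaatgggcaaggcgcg

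Most subunits stood slightly higher in the libraries labelled knockout, and all but 1 of these differences missed the test. The log2 fold change (libraries labelled knockout over wild type) was positive in 70 of 80 tested members (87.5%), against 50.4% of all 18965 tested genes. The members moved together between libraries, with 72 of the 80 at their lowest in W1 or W4, so they are not separate results. The median log2 fold change over the members was 0.11, against 0.0018 over all tested genes. Single values ran from -0.24 (Cox6a1) to 0.79 (Cox8b). At a Benjamini-Hochberg adjusted p under 0.05 in edgeR's quasi-likelihood test over all genes, 1 member was higher (Ndufs5), where 0.859% of all tested genes were, and 0 were lower, where 1.17% were (2.03% in either direction). An unadjusted p under 0.05 was reached by 16 members with a higher level, against 6.78% of all tested genes, and by 0 with a lower level, against 7.03%. Every library labelled knockout lay above every wild-type library for 2 members, Ndufs5 and Ndufv3, against 1.76% of all tested genes, and the reverse held for 0 members, against 1.72% (3.48% in either direction). With the counts of its copy added, Ndufs5 was not called, as described with that gene. In bulk retina, fewer cells of a type and less RNA per cell cannot be told apart.

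**Figure D1:**
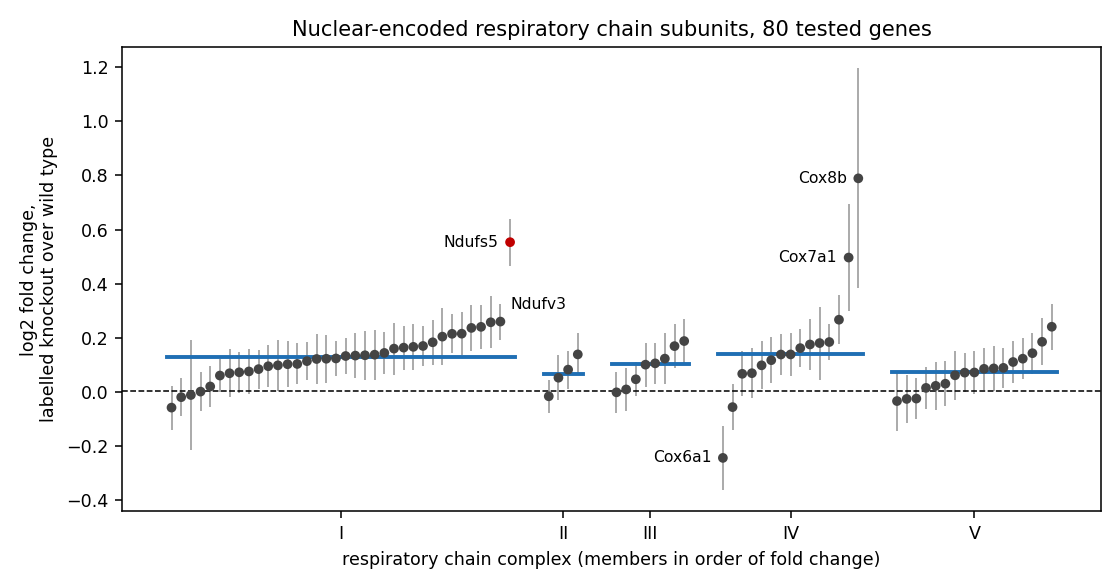
Each point is 1 of the 80 tested members, ordered by fold change within complexes I to V; the y axis gives the edgeR log2 fold change of libraries labelled knockout over wild type, grey bars are 1 standard error, blue lines are the medians of each complex (0.13, 0.07, 0.10, 0.14 and 0.07) and the dashed line is the median of all tested genes. Most points lie above the dashed line, and Ndufs5 (red) is the only member that passed the test.

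The medians were positive in each of the 5 complexes, and differences between complexes were not tested. In complex I, 33 of 36 members were positive with a median of 0.13, and 9 had an unadjusted p under 0.05. In complex II, 3 of 4 were positive (median 0.07), with 0 at that p. In complex III, 7 of 8 were positive (median 0.10), with 1. In complex IV, 13 of 15 were positive (median 0.14), with 4. In complex V, 14 of 17 were positive (median 0.07), with 2. Each member counted at that p in edgeR was higher in the libraries labelled knockout. Among all tested genes, 50.4% were positive, and at that p 6.78% stood higher and 7.03% lower. The lowest edgeR adjusted p was 0.00239 in complex I, 0.462 in II, 0.327 in III, 0.177 in IV and 0.195 in V.

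Summed over a complex, the level overlapped between the groups in all 5. Complex I summed to 2200, 2700, 2487, 2205 and 2477 CPM in W1 to W5 and to 2739, 2762, 2510, 2788 and 2509 CPM in K1 to K5. W1 and W4 were lowest, and W2 lay within the range of the libraries labelled knockout. The mean sum was 2414 ± 212 CPM for wild type, against 2662 ± 140 CPM for the libraries labelled knockout (SD, n = 5 each). Complex II summed to 573 ± 47.3 and 598 ± 40.8 CPM, complex III to 673 ± 71.0 and 713 ± 26.0 CPM, complex IV to 1190 ± 153 and 1257 ± 58.7 CPM, and complex V to 3141 ± 313 and 3282 ± 190 CPM. The difference of the group means exceeded 1 SD of the wild-type libraries in complex I and was below it in the other complexes.

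**Figure D2:**
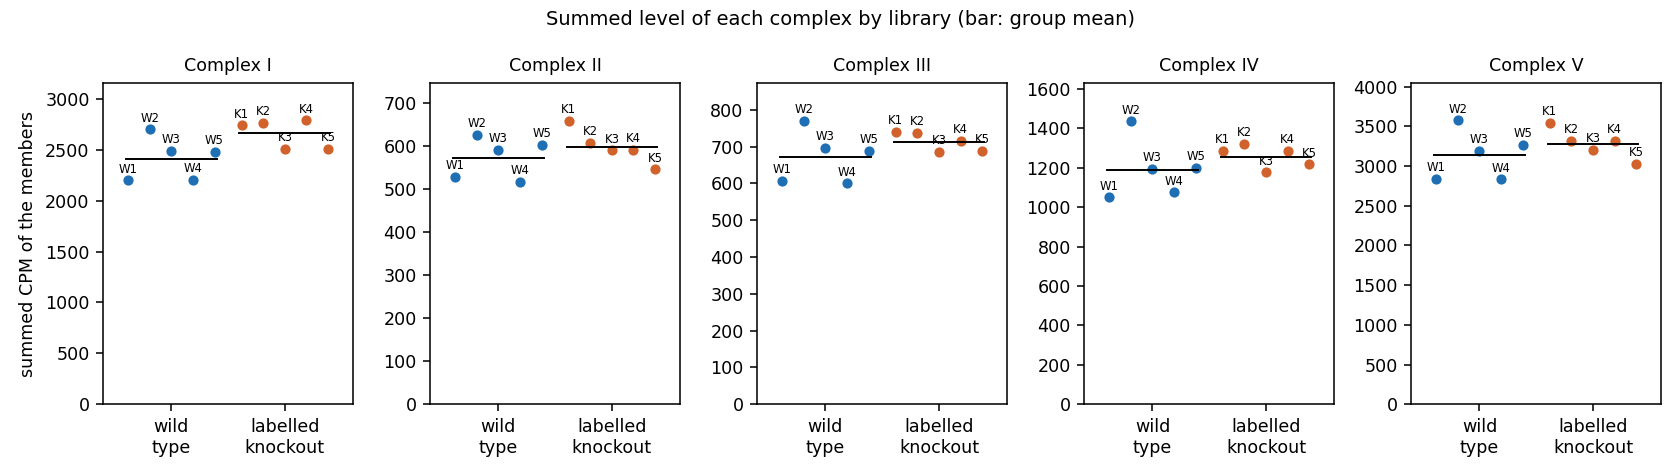
Points are the summed CPM of the members of each complex in each library, with wild type in blue and labelled knockout in orange and black bars for the group means; y axes start at 0. W1 and W4 are the 2 lowest wild-type libraries in each complex and W2 is the highest, while the libraries labelled knockout stay inside the range spanned by W1 and W2 for complexes III, IV and V.

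The wild-type libraries varied more than the others, and W1, W4 and W2 lay farthest from the rest. W1 was the lowest of all 10 libraries for 46 members and W4 for 26, so that 72 of 80 members had their lowest value in 1 of these libraries. W1 had the lowest total count of the 10 libraries and W4 the highest. The highest value lay in W2 for 31 members, in K4 for 22 and in K2 for 15. The coefficient of variation had a median of 11.4% over members in wild type and 6.80% in libraries labelled knockout, and was larger in wild type for 71 of 80. Centred on the mean over libraries, the mean log2 level of the members was -0.19 in W1, 0.14 in W2, -0.04 in W3, -0.18 in W4 and -0.05 in W5, and 0.09, 0.12, -0.004, 0.10 and 0.01 in K1 to K5. Left out of the fit, W2 raised the members' median log2 fold change to 0.17, and leaving out W4 lowered it to 0.07. Without W2, 6 members were called higher in edgeR (Ndufs5, Ndufv3, Ndufb4, Ndufb9, Atp5e and Cox8b), where 1.31% of all tested genes were. With DESeq2 in place of edgeR and all libraries kept, Ndufs5 and Ndufv3 were called higher, where 1.28% of all tested genes were.

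Some other transcripts also stood low in W1 and W4, but the lists differed. Rod markers and mitochondrially encoded subunits were lowest within wild type there. Bipolar markers were highest within wild type in W1 (1817 CPM), and cone markers were highest of all libraries in W4 (1446 CPM). The 13 rod markers summed to 68230, 86800, 81030, 71760 and 84600 CPM in W1 to W5 and to 87770, 62850, 67600, 78900 and 68500 CPM in K1 to K5. Rod sums were thus lowest within wild type in W1 and W4, as were those of the respiratory chain, but the libraries labelled knockout covered almost the same range. Of the rod markers, 7 of 13 had a positive fold change (median 0.0048), and Sag, the rod arrestin, was the only one called (log2 fold change -0.67, edgeR adjusted p = 0.00267). Over all tested genes, 1.17% were called lower. The part of rod RNA in the members' shift was not tested.

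Members also belong to the short transcripts, and short transcripts as a whole had a positive median fold change, though not every library labelled knockout stood above wild type. The members' annotated exon length had a median of 1578 bases, against 3706 for the 18920 tested genes with a length. Split into 5 length classes of equal size, all tested genes had a median log2 fold change of 0.08 at 27 to 1711 bases, 0.03 at 1712 to 3008, 0.01 at 3009 to 4502, -0.02 at 4503 to 6824 and -0.05 above that, with 63.4% positive in the shortest class and 36.1% in the longest. The 42 members in the shortest class had a median of 0.14 with 38 positive, the 20 in the next class 0.10 with 16 positive, the 12 in the third 0.08 with 11 positive and the 5 in the fourth 0.07 with 5 positive. The only member in the longest class, Ndufs1, the largest core subunit of complex I, had a log2 fold change of -0.02. The members' medians lay above those of all tested genes in the classes that hold several members, and both declined with length. In the longest class, Ndufs1 lay above the median of all genes by less than its SE of 0.07. By library, the median log2 level of all tested genes in the shortest class, centred on the mean over libraries, was -0.039, -0.021, -0.028, -0.005 and -0.04 in W1 to W5. In K1 to K5 it was -0.021, 0.044, 0.01, 0.055 and 0.069, so K1 lay within the wild-type range. W4 was the highest wild-type library there, whereas the mean of the members in W4 was -0.18. The part of length in the members' shift was not tested.

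**Figure D3:**
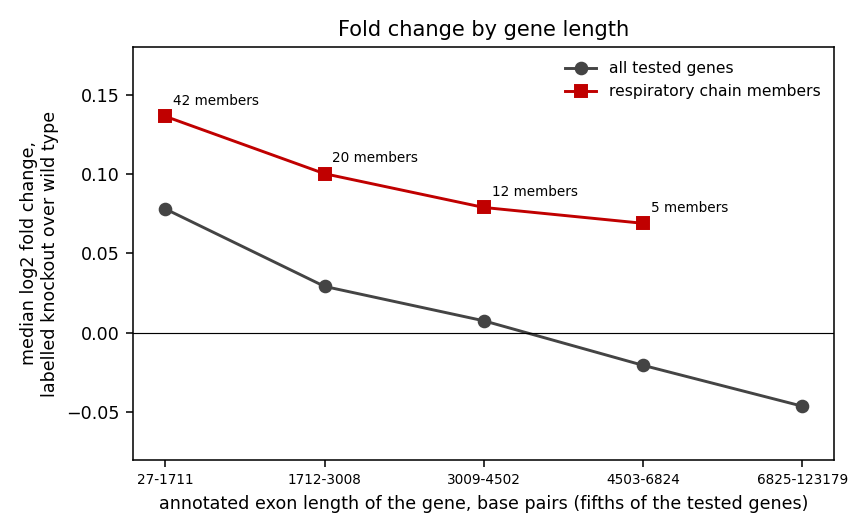
The x axis gives 5 classes of annotated exon length in base pairs, the y axis the median edgeR log2 fold change of libraries labelled knockout over wild type for all tested genes (grey circles) and for the respiratory chain members (red squares, with their number). Both lines decline from left to right, from 0.08 to -0.05 for all genes and from 0.14 to 0.07 for the members over the 4 classes that hold more than 1 member.

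In complex I, Ndufs5 (ENSMUSG00000028648.13, chromosome 4, 123712710 to 123718202, GRCm38) was the member that passed the test. Its level was 27.0, 37.5, 32.1, 28.2 and 33.3 CPM in W1 to W5 and 51.0, 45.8, 44.4, 46.8 and 43.8 CPM in K1 to K5. The groups did not overlap. Its log2 fold change was 0.55 ± 0.09 (SE), from 31.6 ± 4.18 to 46.4 ± 2.85 CPM (SD, n = 5 each), with an edgeR adjusted p of 0.00239, and the call held with each library left out in turn (0.50 to 0.62). Within 2 megabases on either side, 39 genes were tested and 2 were called, Ppt1 and Grik3, both lower. Of all tested genes, 2.03% were called in either direction and 1.17% lower.

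The copy of Ndufs5 moved the other way. BC002163 (ENSMUSG00000081824.5, chromosome 16, 42955631 to 42955949) stood at 10.4, 14.3, 12.3, 12.2 and 12.2 CPM in W1 to W5 and at 1.69, 1.21, 1.39, 2.22 and 1.38 CPM in K1 to K5. Every library labelled knockout was far below every wild-type library. Its log2 fold change was -2.96 ± 0.16 (SE), from 12.3 ± 1.37 to 1.58 ± 0.397 CPM, with an edgeR adjusted p of 3.36e-08. Counted together, Ndufs5 and BC002163 gave 37.4, 51.8, 44.3, 40.5 and 45.5 CPM in wild type and 52.7, 47.1, 45.8, 49.0 and 45.2 CPM in libraries labelled knockout. The summed levels overlapped, at 43.9 ± 5.44 and 47.9 ± 3.04 CPM, and the log2 fold change of the sum was 0.13 ± 0.08 (SE) with an edgeR adjusted p of 0.549. With the copies' counts added to each member, 0 members were called higher, where 0.856% of all tested genes were. The sum was chosen after the values of both genes had been seen, and the sources used here do not state how reads with several matches were counted.

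**Figure D4:**
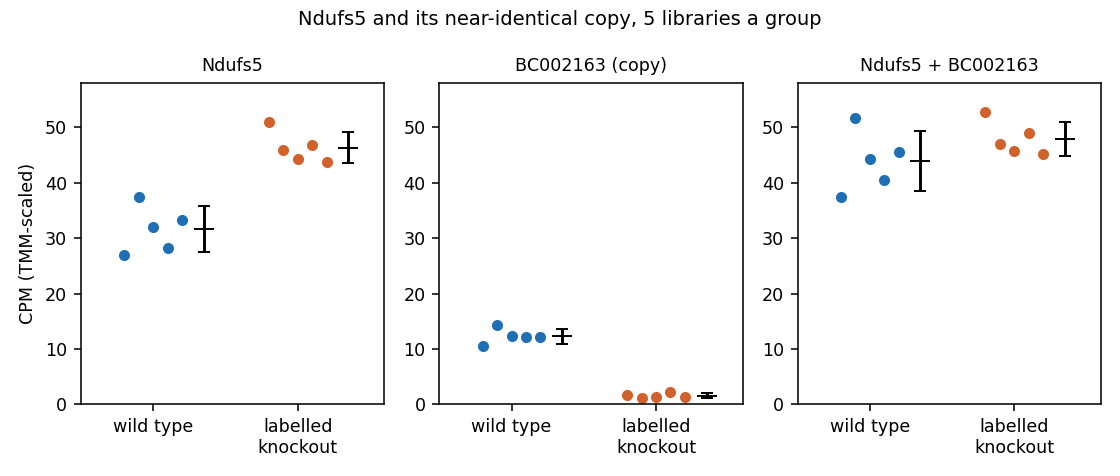
Points are the CPM of Ndufs5, of its near-identical copy BC002163 and of their sum in each of 5 wild-type libraries (blue) and 5 libraries labelled knockout (orange), with the mean and SD beside them; all 3 panels share a y axis that starts at 0. Ndufs5 is higher and BC002163 lower in every library labelled knockout, while the sums (37.4 to 51.8 and 45.2 to 52.7 CPM) overlap.

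The Ndufv genes encode the NADH-oxidising end of complex I, and Ndufv3 was the only one of them that separated the groups. Ndufv3, an accessory subunit of this module, stood at 74.0, 89.8, 83.3, 81.0 and 88.2 CPM in W1 to W5 and at 96.8, 104.0, 98.3, 104.5 and 94.9 CPM in K1 to K5. The groups did not overlap, with means of 83.2 ± 6.31 and 99.7 ± 4.35 CPM, yet the log2 fold change of 0.26 ± 0.07 (SE) had an edgeR adjusted p of 0.0594. The authors' deposited table gives Ndufv3 an adjusted p of 0.0229, and Ndufs5 and Ndufv3 are the 2 members under 0.05 among 81 with an adjusted p there, where 1.49% of all genes are under 0.05 and higher. Ndufv2, an iron-sulfur core subunit, stood at 87.3, 106.3, 95.9, 87.6 and 97.1 CPM in wild type and at 104.1, 110.4, 102.4, 119.0 and 97.6 CPM in libraries labelled knockout, with overlap between the groups (log2 fold change 0.17, edgeR adjusted p = 0.320). All 3 Ndufv genes were positive, with a median of 0.17.

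Ndufs6, a zinc-binding accessory subunit, stood at 35.2, 44.7, 36.5, 32.6 and 36.3 CPM in W1 to W5 and at 41.2, 45.8, 39.6, 42.7 and 38.6 CPM in libraries labelled knockout. W2 lay among the latter (log2 fold change 0.17, edgeR adjusted p = 0.410). Of the 7 Ndufs genes, 6 were positive with a median of 0.08.

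The accessory subunits of the Ndufb group, which sit in the proton-pumping membrane arm, were positive in 10 of 10, with a median of 0.13 and values from 0.0012 (Ndufb2) to 0.26 (Ndufb4). Ndufb10 stood at 62.4, 78.2, 71.9, 63.0 and 70.7 CPM in W1 to W5 and at 81.6, 83.5, 74.6, 82.9 and 79.2 CPM in K1 to K5. Only W2 overlapped with the libraries labelled knockout (log2 fold change 0.21, edgeR adjusted p = 0.172). Ndufb9, of the LYR motif family, stood at 80.3, 104.2, 86.1, 78.6 and 95.0 CPM in wild type and at 104.9, 109.8, 97.8, 104.3 and 98.6 CPM in libraries labelled knockout. Again W2 was the wild-type library in the range of the other group (log2 fold change 0.22, edgeR adjusted p = 0.224, and 0.0463 without W2). For Ndufb9 this was the 1 of 18 alternative fits with an adjusted p under 0.05, and the highest was 0.405. Ndufb4 stood at 18.3, 24.9, 18.8, 18.2 and 20.5 CPM in wild type and at 22.4, 24.5, 24.7, 26.7 and 22.01 CPM in libraries labelled knockout (log2 fold change 0.26, edgeR adjusted p = 0.235, and 0.0337 without W2). Its adjusted p was likewise under 0.05 in 1 of 18 alternative fits, and the highest was 0.480. Ndufb7 stood at 55.1, 64.5, 61.2, 54.5 and 59.7 CPM and at 65.5, 68.3, 58.6, 65.4 and 65.6 CPM, with more overlap (edgeR adjusted p = 0.415). Ndufb11, an X-linked subunit and among the most abundant of complex I per length, stood at 86.0, 120.2, 102.9, 89.5 and 106.2 CPM and at 120.2, 117.7, 99.1, 112.8 and 99.4 CPM (edgeR adjusted p = 0.617). Its groups overlapped over most of their range.

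Of the 14 Ndufa genes, 12 were positive with a median of 0.13, and the 2 Ndufc genes were both positive with a median of 0.11. Ndufa12, an accessory subunit near the NADH module, stood at 39.3, 48.7, 42.0, 40.0 and 49.2 CPM in W1 to W5 and at 52.7, 54.0, 47.2, 57.7 and 46.7 CPM in K1 to K5 (log2 fold change 0.24, edgeR adjusted p = 0.202). Its near-identical copy Gm15920, with 99.5% identity over 89.3% of the coding sequence, stood at 8.47, 5.96 and 5.15 CPM in W1 to W3, at 0.699 and 0.503 CPM in W4 and W5, and at 0.649 to 1.26 CPM in K1 to K5. The copy was thus high in 3 wild-type libraries and low in the other 7 libraries, its edgeR adjusted p was 0.0721, and with copies added the log2 fold change of Ndufa12 was 0.13. Ndufa6, another LYR family subunit, stood at 40.2, 55.7, 49.6, 42.5 and 50.5 CPM in wild type and at 54.2, 53.9, 52.0, 57.9 and 52.8 CPM in libraries labelled knockout (log2 fold change 0.18, edgeR adjusted p = 0.346). Ndufa13, also known as Grim19, stood at 57.1, 74.6, 63.7, 54.7 and 60.9 CPM and at 71.6, 72.3, 65.6, 73.4 and 65.4 CPM (log2 fold change 0.16, edgeR adjusted p = 0.399). In both genes W2 was the only wild-type library that reached the range of the other group. The lowest complex I fold change, -0.06, was that of Ndufa9.

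Near-identical copies were common in the table. A copy with at least 90% identity over at least 60% of the coding sequence was listed for 30 of the 83 members, with 68 copies in all. Of these copies 30 were tested and 2 called, where 2.03% of all tested genes were called in either direction. BC002163 was one, and the other was 4930481A15Rik on chromosome 19, whose transcript matches the coding sequence of Uqcr10 in antisense (96.1% identity over 80.7%). It stood at 4.62, 6.27, 2.04, 5.42 and 3.35 CPM in W1 to W5 and at 7.92, 13.94, 11.58, 14.04 and 14.35 CPM in K1 to K5. The groups did not overlap (log2 fold change 1.51, edgeR adjusted p = 0.00305), while Uqcr10 itself differed by 0.11 with an edgeR adjusted p of 0.590. How many reads of either gene fall on the stretch they share was not measured.

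Complex II also belongs to the citric acid cycle, and 3 of its 4 members had a positive fold change with none near the test's threshold. Sdha, the flavoprotein that oxidises succinate, stood at 335.8, 404.1, 370.8, 328.0 and 393.7 CPM in W1 to W5 and at 431.2, 380.1, 380.3, 368.7 and 339.8 CPM in K1 to K5. The ranges lay over each other (log2 fold change 0.05, edgeR adjusted p = 0.838). Sdhd, a membrane anchor, stood at 45.7, 55.6, 55.5, 47.6 and 50.5 CPM and at 56.9, 55.0, 50.3, 54.7 and 53.0 CPM (log2 fold change 0.08, edgeR adjusted p = 0.668). Sdhc, the other anchor, and Sdhb, the iron-sulfur subunit, had log2 fold changes of 0.14 and -0.02.

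In complex III, which passes electrons from ubiquinol to cytochrome c, 1 gene was almost without reads. Uqcrc1, the larger core protein (chromosome 9, 108936633 to 108949623), had 1 read in W2 and 0 in each of the other 9 libraries, whereas Uqcrc2, its partner in the complex, stood at 125 CPM in both groups. No other gene of the table overlaps Uqcrc1, and the cause of its near absence was not tested. Uqcrb, a small matrix-side subunit, stood at 59.0, 69.9, 72.7, 56.6 and 67.3 CPM in W1 to W5 and at 74.7, 75.5, 69.6, 83.9 and 67.2 CPM in K1 to K5 (log2 fold change 0.19, edgeR adjusted p = 0.327). Uqcrh, the hinge protein that docks cytochrome c, stood at 95.4, 122.4, 112.6, 91.6 and 106.5 CPM and at 117.5, 129.6, 113.3, 118.4 and 115.5 CPM (log2 fold change 0.17, edgeR adjusted p = 0.370). Uqcr10 stood at 45.3, 57.5, 49.5, 42.8 and 48.6 CPM and at 52.8, 53.4, 52.1, 52.8 and 51.1 CPM. In the last 2 genes W2 was the only wild-type library not below all libraries labelled knockout. The catalytic subunits Cyc1 (cytochrome c1) and Uqcrfs1 (the Rieske iron-sulfur protein) had log2 fold changes of 0.05 and 0.01.

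In complex IV, cytochrome c oxidase, several subunits exist as a common form and a form restricted to some tissues. Cox4i2, an oxygen-responsive isoform known from lung, stood at 23.2, 30.7, 30.9, 26.1 and 24.5 CPM in W1 to W5 and at 31.1, 33.3, 30.4, 36.2 and 31.9 CPM in K1 to K5. W2 and W3 reached the lowest of the libraries labelled knockout (log2 fold change 0.27 ± 0.09 SE, edgeR adjusted p = 0.177). The common form Cox4i1 stood at 201.1, 289.0, 232.1, 213.3 and 235.1 CPM and at 253.4, 259.8, 234.6, 263.1 and 242.2 CPM (log2 fold change 0.10, edgeR adjusted p = 0.691). Per kilobase of exon, the level of Cox4i2 was 22.9 ± 2.36% of that of Cox4i1 in wild type and 25.6 ± 1.05% in libraries labelled knockout (SD, n = 5 each).

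The heart and muscle isoforms were low. Cox8b stood at 1.59, 4.203, 1.03, 0.849 and 0.592 CPM in W1 to W5 and at 2.37, 3.27, 3.76, 2.16 and 2.61 CPM in K1 to K5. All wild-type libraries but W2 were below all libraries labelled knockout, and W2 was the highest of the 10. The log2 fold change was 0.79 ± 0.41 (SE) with an edgeR adjusted p of 0.419, and 1.49 with an adjusted p of 0.00676 when W2 was left out. That was the 1 of 18 alternative fits with an adjusted p under 0.05, and the highest was 0.614. Cox7a1 stood at 1.97, 2.10, 1.82, 1.40 and 2.34 CPM and at 2.45, 2.46, 2.84, 2.13 and 3.70 CPM (log2 fold change 0.50 ± 0.20 SE, edgeR adjusted p = 0.266). Only K4 lay within the wild-type range. Cox6a2 had 0 to 13 reads a library (at most 0.390 CPM) and was not tested. Of 11 markers of striated muscle, all with reads and 8 tested, 4 were positive and 0 called, where 2.03% of all tested genes were called in either direction. Their summed level was 22.7 to 42.7 CPM in wild type, lowest in W3, and 36.7 to 44.6 CPM in libraries labelled knockout. The largest part came from 1 gene, Tnnt1, with group means of 17.0 (wild type) and 25.3 CPM, against 33.9 and 39.7 for the sum. The sum does not give the direction of the other markers. Of the 8 tested, 4 were negative, among them Acta1 (log2 fold change -0.72) and Mb (-0.90). The untested Myh4, Tnni2 and Tnnt3 also had lower means under the knockout label, and each was highest in W1 (7.45, 1.72 and 2.16 CPM). In the other wild-type libraries they stood at 0.025 to 0.355, 0.079 to 0.804 and 0.050 to 0.680 CPM. The part of muscle RNA in the values of Cox8b and Cox7a1 was not tested.

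Cox6a1, the common form of the subunit whose muscle form is Cox6a2, had the lowest fold change of all members. It stood at 103.0, 172.4, 122.5, 104.3 and 147.1 CPM in W1 to W5 and at 109.1, 114.7, 104.6, 113.5 and 106.2 CPM in K1 to K5. The wild-type libraries spread on both sides of the narrow range of the others. Its log2 fold change was -0.24 ± 0.12 (SE) with an edgeR adjusted p of 0.387, and it was -0.12 without W2. The common forms Cox7a2 (71.7 ± 9.64 and 68.9 ± 4.15 CPM), Cox6b1 (91.1 ± 11.6 and 95.4 ± 5.11 CPM) and Cox8a (165 ± 24.2 and 173 ± 12.7 CPM) differed by less than 1 SD of wild type.

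Cox7b, an X-linked subunit, stood at 55.5, 63.17, 61.0, 55.8 and 55.9 CPM in W1 to W5 and at 65.6, 67.9, 63.24, 72.7 and 61.5 CPM in K1 to K5. Only K5 lay within the wild-type range (log2 fold change 0.18 ± 0.07 SE, edgeR adjusted p = 0.212). Cox6c stood at 103.4, 128.2, 114.9, 108.1 and 108.0 CPM and at 124.0, 128.1, 119.2, 134.8 and 123.4 CPM (log2 fold change 0.16, edgeR adjusted p = 0.310). Here W2 was again the wild-type library in the range of the other group. The testis isoforms differed in level: Cox6b2 stood at 7.61, 6.58, 8.06, 8.16 and 6.34 CPM and at 6.26, 8.24, 8.46, 8.55 and 10.2 CPM (edgeR adjusted p = 0.608), and Cox7b2 had 0 to 4 reads a library.

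Ndufa4, which was first assigned to complex I and is now placed in complex IV, stood at 157.5, 222.2, 178.7, 164.1 and 189.2 CPM in W1 to W5 and at 208.5, 220.2, 177.5, 224.2 and 188.2 CPM in K1 to K5. The groups overlapped over most of their range (log2 fold change 0.16, edgeR adjusted p = 0.506). Its paralog Ndufa4l2, known for induction by low oxygen, stood at 1.59, 2.97, 2.51, 2.67 and 1.63 CPM and at 2.15, 2.71, 2.25, 2.01 and 2.17 CPM. Its log2 fold change was -0.01 (edgeR adjusted p = 0.988), and the sign changed with several single libraries left out.

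Measured per kilobase of exon, the common forms exceeded the restricted ones in every library. Relative to its counterpart, the level was 5.26 ± 1.11% in wild type and 5.62 ± 1.13% in libraries labelled knockout for Cox6b2, 4.75 ± 0.778% and 7.0 ± 1.82% for Cox7a1, and 1.63 ± 1.17% and 2.83 ± 0.775% for Cox8b (SD, n = 5 each). It was 1.57 ± 0.391% and 1.41 ± 0.193% for Ndufa4l2, 0.126 ± 0.122% and 0.236 ± 0.0892% for Cox6a2, and 0.227 ± 0.179% and 0.102 ± 0.131% for Cox7b2. For Cox4i2, Cox7a1 and Cox8b the means differ by more than 1 SD of wild type, and no test of these shares was run.

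**Figure D5:**
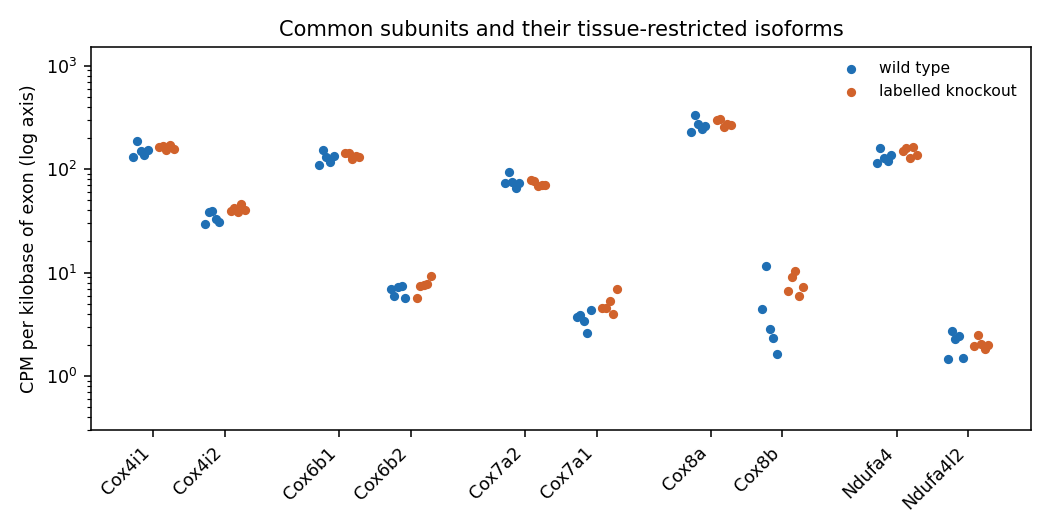
The log-scaled y axis gives CPM per kilobase of annotated exon in each library (wild type blue, labelled knockout orange) for 5 common subunits, each followed by its tissue-restricted isoform or paralog. Cox4i2 is closest to its counterpart at 22.9% and 25.6% on average, and the other 4 lie below their counterparts by more than 10 times in group means.

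In complex V, the most abundant members differed little. Atp5b, the catalytic beta subunit, stood at 1045, 1296, 1167, 992 and 1215 CPM in W1 to W5 and at 1340, 1170, 1184, 1188 and 1082 CPM in K1 to K5 (log2 fold change 0.06, edgeR adjusted p = 0.827). Atp5a1, the alpha subunit, stood at 590.3, 761.0, 698.5, 603.9 and 702.1 CPM and at 756.3, 673.0, 692.6, 675.6 and 611.0 CPM (log2 fold change 0.02, edgeR adjusted p = 0.945). In both genes the 2 ranges lay over each other.

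The complex V members with an unadjusted p under 0.05 were Atp5e and Atp5k. Atp5e, the epsilon subunit of the rotor stalk, stood at 51.4, 67.9, 57.5, 51.4 and 60.6 CPM in W1 to W5 and at 68.3, 76.5, 62.0, 69.3 and 65.1 CPM in K1 to K5. W2 alone overlapped with the other group (log2 fold change 0.24 ± 0.09 SE, edgeR adjusted p = 0.195, and 0.0449 without W2). For Atp5e this was the 1 of 18 alternative fits with an adjusted p under 0.05, and the highest was 0.368. Atp5k, the membrane subunit e, stood at 48.8, 66.8, 57.2, 48.8 and 57.8 CPM and at 62.4, 70.3, 63.1, 60.05 and 61.9 CPM (log2 fold change 0.19, edgeR adjusted p = 0.357), with W2 again the one that overlapped.

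The proton-carrying c ring is built from a protein encoded by 3 genes, Atp5g1, Atp5g2 and Atp5g3, whose mature products are the same. Atp5g3 stood at 152.1, 190.4, 169.6, 153.6 and 164.3 CPM in W1 to W5 and at 186.4, 196.5, 169.7, 192.5 and 171.4 CPM in K1 to K5 (log2 fold change 0.14, edgeR adjusted p = 0.433). Atp5g1 stood at 67.4 ± 5.60 and 68.1 ± 6.05 CPM and Atp5g2 at 42.6 ± 4.72 and 41.8 ± 1.59 CPM (log2 fold changes 0.01 and -0.02). Per kilobase of exon the order was Atp5g3 (76.1 ± 7.10 in wild type), Atp5g2 (25.4 ± 2.82) and Atp5g1 (13.73 ± 1.139), with no overlap of mean ± SD between neighbours. By CPM, Atp5g1 stood above Atp5g2. Their order per kilobase thus depends on the length of all annotated exons together, 4912 bases for Atp5g1 and 1675 for Atp5g2. Of the other names in this group, Atp5s and Atp5sl are accessory or assembly proteins by current naming, and their log2 fold changes were both -0.03.

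Across all members, levels per kilobase spanned a wide range. Atp5b was highest (270 ± 29.3 CPM per kilobase in wild type and 282 ± 21.9 in libraries labelled knockout), followed by Cox8a (267 ± 39.1 and 280 ± 20.4), Atp5a1 (214 ± 23.0 and 217 ± 16.6), Cox6a1 (185 ± 42.3 and 156 ± 6.32), Cox4i1 (151 ± 21.7 and 162 ± 7.73), Ndufa4 (132 ± 18.5 and 148 ± 14.7) and Cox6b1 (129 ± 16.3 and 135 ± 7.22). Neighbours in this order differ by less than the larger of their SDs except Cox8a and Atp5a1 in both groups, and Atp5a1 and Cox6a1 in the libraries labelled knockout.

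The partners encoded in mitochondrial DNA had positive fold changes in 12 of 13 genes, with a median of 0.25 and 0 called (lowest edgeR adjusted p 0.136). Of these partners, 5 were higher at an unadjusted edgeR p under 0.05, where 6.78% of all tested genes were. Their summed level was 25820, 36150, 29880, 27100 and 33240 CPM in W1 to W5 and 31600, 37860, 29440, 40180 and 31080 CPM in K1 to K5, lowest in W1 and W4 as for the nuclear members. Of 7 tested subunits and carriers outside the name rule, 6 were positive with a median of 0.06 and 0 called, among them Ndufab1, the acyl carrier protein (log2 fold change -0.04), and Cycs, cytochrome c (0.05). Of 47 assembly factors, which build the complexes but do not stay in them, 34 were positive with a median of 0.03 and 0 called. Of 19 regulators of mitochondrial gene expression, 11 were positive with a median of 0.0082. In this list Polg2, the accessory subunit of the mitochondrial DNA polymerase, was the gene called, at 35.4, 41.2, 42.2, 38.8 and 37.9 CPM in W1 to W5 and 55.7, 50.3, 45.4, 46.3 and 44.8 CPM in K1 to K5 (log2 fold change 0.31, edgeR adjusted p = 0.0478). That adjusted p lay close to the threshold of 0.05. Over all tested genes, 0.859% were called higher and 2.03% in either direction. The transcription factors whose motifs were searched, Nrf1, Gabpa and Yy1, differed by 0.05, 0.01 and -0.11 on the log2 scale (edgeR adjusted p = 0.794, 0.974 and 0.565).

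Fold changes of markers of other retinal cell types were positive in 4 of 8 cone, 7 of 9 bipolar, 4 of 8 amacrine, 1 of 4 horizontal, 1 of 8 ganglion cell, 6 of 8 Muller glia and 7 of 8 endothelial and pericyte markers, with 0 called in each list. Of 10 microglia markers, 8 were positive (median 0.25) and C1qc was called (edgeR adjusted p = 0.0342), with summed levels of 40.9 to 68.7 CPM in wild type and 55.6 to 60.8 CPM in libraries labelled knockout. Over all tested genes, 0.859% were called higher and 2.03% in either direction. Markers of pigment epithelium, a tissue next to the retina, were positive in 4 of 8 and summed to 29.99 to 233.5 CPM in wild type, highest in W2, and to 96.8 to 190.8 CPM in the others. Tested markers were positive in 1 of 4 for smooth muscle, 2 of 4 for germline, 3 of 5 for erythroid cells and 0 of 2 for lens, with 0 called. The part of any of these cell types in the members' values was not tested.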

How the data were processed

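Gene-level RNA sequencing was compared in 5 wild-type and 5 labelled knockout retina libraries, grouped by the genotype label. The authors deposited raw counts of reads per gene. The submitters' processing notes name bcl2fastq and FastQC, the aligner STAR (2.5.3a), the counter featureCounts (1.15.2) and DESeq2 (1.14), with the build GRCm38.p5. Settings for strand and for reads with several matches are not given in the sources used here. The deposited mean signal per gene over all libraries, per the file headers, was left aside. Log2 fold changes and p-values deposited in the same table are the authors' DESeq2 comparison, per the file headers, and are printed only where named as such.

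Genes were kept with edgeR 4.0.16 filterByExpr (minimum count 10, minimum total 15), scaled with TMM and tested with the quasi-likelihood test (R 4.3.3), genotype being the only term. Adjusted p-values (Benjamini-Hochberg) run over all 18965 tested genes, and a gene was called under 0.05. Standard errors were taken as the size of the log2 fold change over the root of its F statistic. Levels per kilobase divide scaled CPM by the GENCODE M21 exon length. Copies were found with BLAST 2.17.0. The test was checked on simulated counts.

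Members and gene lists (mitochondrially encoded subunits, other subunits and carriers, assembly factors, regulators, markers of retinal and neighbouring cell types) were chosen with earlier results of these data known. Members given by library were the called member, the 20 others with the lowest p, the 2 highest per kilobase in each complex, and isoforms with their counterparts; 1 of them is not reported here. Alternatives were DESeq2 1.42.0, limma-voom (limma 3.58.1), RLE and upper-quartile factors, other low-count filters, no mitochondrially encoded genes, each library left out, and copies added. Set tests were not run.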

Additional observations from a re-analysis of the deposited data

Results flagged for a closer look

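Libraries far from the rest were looked for in 40 of the 83 members and in the summed levels of the 5 complexes, at scaled CPM. The other members were not examined in this way. Of 90 groups of 5 libraries examined, 1 held such a library by Dixon's criterion at the 95% level, where chance gives about 1 in 20 groups. It was Cox8b, the heart and muscle isoform of a complex IV subunit, which stood at 4.2 CPM in W2 and at 0.592 to 1.59 CPM in the other wild-type libraries.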

How the results depend on the processing

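The median log2 fold change stayed positive for all members and for each complex in all 18 alternatives, from 0.07 to 0.17 over all members, 0.09 to 0.19 in complex I, 0.03 to 0.10 in II, 0.06 to 0.17 in III, 0.09 to 0.19 in IV and 0.03 to 0.13 in V. The low ends came from leaving out W1, W4 or, in complex II, K1, and the high ends from leaving out W2. Members called higher numbered 1, against 2 with DESeq2 (Ndufs5 and Ndufv3, where 1.28% of all tested genes were called higher), 1 to 6 with a library left out (6 without W2) and 0 with copies added, an alternative chosen after seeing the data in which Ndufs5 was at 0.13. Members called lower numbered 0 throughout. All tested genes called numbered 385, against 763 with DESeq2, 704 without the low-count filter and 211 to 542 with a library left out (211 without K4 and 240 without K5). Members near 0 changed sign without being called. Ndufa4l2 was at 0.020 with limma-voom and at -0.11 to 0.10 with a library left out. On the same basis Cox7a2 ran from -0.107 to 0.026, Atp5a1 from -0.021 to 0.071, Atp5g1 from -0.031 to 0.057 and Atp5g2 from -0.065 to 0.035. The causes of these changes were not tested. No paired analysis was possible because the labels carry no replicate numbers. Fold changes near 0.1 lie within about 1 SE to 2 SE for most members, so 5 libraries a group leave them undetermined.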
